A study of Mus musculus with 7 samples.

Results

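Oxidative phosphorylation is carried out by 5 protein complexes of the inner mitochondrial membrane, and most of their subunits are encoded in the nucleus. The 81 nuclear genes described here were chosen by symbol from the 42687 gene identifiers of the count table: the Nduf genes of complex I, Sdha to Sdhd of complex II, the Uqcr genes and Cyc1 of complex III, the electron carrier Cycs, the Cox4 to Cox8 genes of complex IV and the Atp5 genes of complex V. Of 92 symbols that matched, 6 pseudogenes were left out and 5 of the remaining 86 had fewer than 3 libraries with 10 or more counts. Complex I contributed 36 genes, complex II 4, complex III 9, complex IV 14 and complex V 17, with cytochrome c as 1 gene of its own. The complexes were assigned by symbol alone, which placed Ndufa4 under complex I and Atp5s, coupling factor B, under complex V. None of the 81 passed the count rule through 1 diet group only, and 80 had at least 10 counts in every library.

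Cells positive for CD24 and CD29 (the integrin beta 1 chain, encoded by Itgb1) had been sorted from digested femurs of C57BL/6 mice, and the labels call them skeletal stem cells of bone. The mice were 3 months old and ate for 4 weeks either a low fat diet (LFD, 10% fat, 4 libraries, numbered 1 to 4) or a high fat diet (HFD, 60% fat, 3 libraries, numbered 2 to 4). The labels do not say whether each library came from a separate animal, so the p-values below measure the spread between these libraries, which may be technical in part. No label gives the sex, but the LFD libraries held 257 to 526 counts of Xist and a sum of 1 to 5 counts over 4 genes of the Y chromosome, and the HFD libraries held 0 counts of Xist and 2494 to 3405 Y counts. Diet and sex therefore cannot be told apart in any comparison given here.

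The libraries held 17391613 to 24681838 counts. Itgb1 was at 368 to 488 CPM (counts relative to library totals, scaled by TMM) in LFD and 380 to 497 CPM in HFD. Cd24a, which codes for CD24, was at 1524 to 4852 CPM and 774 to 3004 CPM. Of the 12 listed markers of skeletal progenitors 11 had counts in every library, and Thy1 stayed under 1 CPM in all. All 23 erythroid markers in the table were detected in every library and took 11.9% to 17.7% of the counts in LFD and 3.22% to 12.8% in HFD. In bulk RNA, fewer cells of a type and less RNA per cell cannot be told apart.

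In the respiratory chain, complex I oxidises NADH and complex II oxidises succinate, and both pass electrons to ubiquinone. Complex III hands the electrons to cytochrome c, complex IV passes them to oxygen, and complex V, the ATP synthase, uses the proton gradient that complexes I, III and IV build. In bone, stem cells of the skeleton are known for a largely glycolytic metabolism that shifts towards mitochondrial respiration as osteoblasts form, and erythroid precursors carry mitochondria until late in their maturation, when these are removed. The nuclear genes of the complexes are known targets of the transcription factors NRF1, GABP (an ETS family factor whose subunits are encoded by Gabpa and Gabpb1) and YY1.

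The letters bound by these factors were searched in the promoters of the set. RefSeq windows of GRCm38.p6, from 250 bases before to 50 bases after a gene's start, were found for 66 of the 81 genes. They were matched by gene identifier, or else by symbol or synonym. Of the 66 genes, 5 had several windows, and a match in any window was counted. The palindromic NRF1 core CGCATGCG was present in 10 of the 66 (15.2%), against 2.07% of 27025 genes with windows of the same length. The ETS core CCGGAAG was present on either strand in 16 (24.2%, against 9.93%) and the YY1 site AAGATGGCG in 7 (10.6%, against 1.64%). Of general promoter elements, CCAAT was found in 43.9% of the 66 and in 41.1% of all genes, and TATAAA in 7.58% and 15.7%. The 66 windows had a median GC content of 58.4%, against 52.8% over all genes, and the letters searched other than CCAAT and TATAAA are rich in G and C. A match describes the letters only and does not show binding.

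The following sequences give the 250 bases before the start, 5′ to 3′ on the strand of the gene, with matches to the NRF1, ETS and YY1 letters in capitals (an ETS match on the other strand reads CTTCCGG). They were chosen to show an NRF1 match alone (Cycs, chr6:50566570-50566819), an NRF1 and an ETS match together (Cox6a1, chr5:115348959-115349208), an ETS match in complex II and in complex III (Sdhd, chr9:50603850-50604099, and Uqcr11, chr10:80406822-80407071), all 3 matches in 1 promoter (Atp5j, chr16:84834977-84835226) and none in the gene with the smallest p of the set (Ndufv1, chr19:4012756-4013005). All lie on the minus strand. Atp5j had 2 windows, and the 250 bases of the other (chr16:84835626-84835875) held no match.
Cycs: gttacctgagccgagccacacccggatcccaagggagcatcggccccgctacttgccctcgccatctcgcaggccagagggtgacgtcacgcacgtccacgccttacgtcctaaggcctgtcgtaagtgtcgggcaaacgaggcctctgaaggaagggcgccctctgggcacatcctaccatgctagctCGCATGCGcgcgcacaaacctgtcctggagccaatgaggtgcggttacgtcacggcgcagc
Cox6a1: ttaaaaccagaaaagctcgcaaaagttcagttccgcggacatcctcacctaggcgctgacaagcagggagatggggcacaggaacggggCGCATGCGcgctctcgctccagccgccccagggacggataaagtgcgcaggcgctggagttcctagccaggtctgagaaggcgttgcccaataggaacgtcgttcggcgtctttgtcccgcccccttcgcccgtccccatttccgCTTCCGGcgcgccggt
Sdhd: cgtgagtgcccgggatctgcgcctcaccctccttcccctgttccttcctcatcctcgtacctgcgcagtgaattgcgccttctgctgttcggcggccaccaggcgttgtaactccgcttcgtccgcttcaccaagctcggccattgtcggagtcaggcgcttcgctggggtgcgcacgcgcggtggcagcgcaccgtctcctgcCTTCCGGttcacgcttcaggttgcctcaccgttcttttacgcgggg
Uqcr11: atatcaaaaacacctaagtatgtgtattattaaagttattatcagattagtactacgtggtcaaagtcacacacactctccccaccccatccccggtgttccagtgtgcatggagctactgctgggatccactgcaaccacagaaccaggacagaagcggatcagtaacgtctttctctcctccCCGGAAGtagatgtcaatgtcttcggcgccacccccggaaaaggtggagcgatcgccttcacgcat
Atp5j: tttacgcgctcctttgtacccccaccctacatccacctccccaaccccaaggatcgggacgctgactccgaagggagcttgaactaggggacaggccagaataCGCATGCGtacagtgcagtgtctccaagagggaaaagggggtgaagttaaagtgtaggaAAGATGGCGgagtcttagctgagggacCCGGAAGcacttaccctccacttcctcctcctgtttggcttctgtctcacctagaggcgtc
Ndufv1: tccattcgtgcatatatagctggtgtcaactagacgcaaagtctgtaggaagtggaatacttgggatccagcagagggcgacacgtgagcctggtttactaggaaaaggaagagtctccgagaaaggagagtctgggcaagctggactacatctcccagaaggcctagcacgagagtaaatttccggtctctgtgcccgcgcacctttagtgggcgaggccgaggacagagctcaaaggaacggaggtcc

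NRF1 and ETS matches occurred together in 5 windows, those of Atp5j, Atp5k, Atp5l, Cox6a1 and Uqcr11. In Uqcr11 the NRF1 match runs across the start, so that its first letters close the printed sequence in lower case. The Atp5j gene is the neighbour of Gabpa, which codes for the DNA-binding subunit of GABP. At least 1 of the 3 was found in 27 genes and none in 39. As a description, the 10 genes with the NRF1 core had a median log2 fold change (HFD over LFD) of -0.28 and the 56 without it -0.16. The 16 with the ETS core had a median of -0.24 against -0.12 for the 50 without, and the 7 with the YY1 site -0.08 against -0.18. These medians carry no test.

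Across the diets, 64 of the 81 genes had a lower fitted level in HFD and 17 a higher one. Over all 14304 genes tested, 48.5% were lower. The median log2 fold change was -0.17, with a range from -0.74 (Cox6b2) to 0.64 (Cox4i2), and the median of all genes tested was 0.02. The differences were small: 54 of the 81 lay within 0.25 of 0 on the log2 scale and 75 within 0.5. No gene of the set passed the test (edgeR quasi-likelihood, Benjamini-Hochberg adjusted p under 0.05), where 0.035% of all genes did, and the smallest adjusted p in the set was 0.588. At an unadjusted p under 0.05 there were 2, Ndufv1 and Uqcrc1, both lower in HFD, where 7.53% of all genes were under that p, 2.35% lower and 5.18% higher. The count at that p, in either direction, was 0 without HFD 2 (4.19% of all genes) and 3 without LFD 1 (14.3%). It was 1 without LFD 2 (6.45%), LFD 3 (6.55%), LFD 4 (7.7%) or HFD 3 (5.24%). The 1 gene without LFD 2 was higher in HFD. DESeq2 and limma-voom also called 0 of the 81, while they called 2.09% and 0.196% of all genes.

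The spread of the whole set was wide within HFD. Summed over the 81 genes, the LFD libraries 1 to 4 stood at 8326, 8713, 8811 and 8274 CPM. HFD libraries 2, 3 and 4 stood at 5771, 7410 and 7965 CPM. The means were 8531 ± 270 and 7049 ± 1141 CPM (SD, here and below over 4 LFD and 3 HFD libraries). In this sum the groups did not overlap, but HFD 4 lay close under the lowest LFD library, and HFD 2 lay far below the rest. The abundant genes weigh most in a sum. As a mean of log2(CPM + 1) over the 81 genes, the groups overlapped, at 5.92 to 6.08 in LFD and 5.59 to 5.99 in HFD. HFD 2 was the lowest of the 7 libraries for 52 of the 81 genes, and LFD 1 was the highest for 34. As a share of all counts, the genes made up 0.785% to 0.921% in LFD and 0.669% to 0.769% in HFD.

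HFD 2 also stood apart in the markers of other cells. Erythroid markers took 3.22% of its counts, against 9.22% and 12.8% in HFD 3 and 4. The 36 proliferation genes took 0.34%, against 0.78% and 0.941% in HFD 3 and 4 and 0.589% to 1.35% in LFD. All 23 erythroid genes and all 36 proliferation genes had lower fitted levels in HFD, with medians of -0.91 and -0.73. None passed by edgeR or DESeq2, and 1 of each list had an unadjusted p under 0.05. With the log2 of the erythroid share as a covariate in the same model, 42 of the 81 respiratory genes were lower in HFD and their median was 0.00. In that fit 45.5% of all genes were lower, with a median of 0.05. Without HFD 2, 50 of 81 were lower and the median was -0.07, and without HFD 4, 68 were lower and the median was -0.28. Over all genes, 50.1% were lower without HFD 2 (median 0.00) and 47.7% without HFD 4 (median 0.04).

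Markers of the labelled cell type and of some blood and bone cells also differed in level. Skeletal progenitor markers took 0.0374% to 0.104% of counts in LFD and 0.188% to 0.367% in HFD, without overlap and with HFD 2 the highest, and 10 of 11 tested genes were higher (median 0.91). The 20 granulocyte genes took 0.112% to 0.582% in LFD and 1.10% to 1.75% in HFD, with all 17 tested genes higher (median 2.24). The 12 monocyte and macrophage genes took 0.0133% to 0.078% and 0.186% to 0.200%, with 11 of 12 higher, and the 15 osteoblast genes 3.53% to 5.43% and 6.05% to 9.37%, with 14 of 15 higher. Of these 4 lists edgeR called 0 genes, with 6, 11, 4 and 5 at an unadjusted p under 0.05. DESeq2 called 4, 9, 1 and 1, and limma-voom 1, 0, 0 and 0. Chondrocyte and B lineage markers overlapped between the diets. The 17 chondrocyte genes took 3.86% to 6.34% of counts in LFD and 4.87% to 9.62% in HFD, with 15 higher (median 0.48). The 12 B lineage genes took 0.00121% to 0.00859% and 0.00808% to 0.0158%, with 9 of 11 tested higher (median 0.80). Neither list had a gene called by edgeR or DESeq2.

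Adipocyte, muscle and endothelial markers also took small shares. The 10 adipocyte markers took 0.000207% to 0.00217% of counts in LFD and 0.00257% to 0.003% in HFD, without overlap. Adipoq was at 0.039, 19.5, 3.30 and 2.62 CPM in LFD and 21.4, 26.0 and 23.5 CPM in HFD. Fabp4 ran the other way, at 1.83 to 9.79 CPM in LFD and 0.874 to 1.64 CPM in HFD. Of 3 adipocyte genes tested 2 were higher and 1 lower, with 0 called by edgeR or DESeq2. Retn, Cidec, Ucp1, Lep and Cfd had 0 counts. Muscle, a tissue rich in these complexes, was represented by 0.0164% to 0.027% of counts in LFD and 0.0115% to 0.0118% in HFD. Of 12 muscle genes tested 9 were lower and 3 higher (median -1.01), with 0 called by edgeR and 2 by DESeq2, and Myh4, a myosin of fast fibres, had 0 counts. The satellite cell genes Myf5 and Myod1 were at 63.4 to 111 and 30.7 to 86.7 CPM in LFD and 35.3 to 38.9 and 8.36 to 16.3 CPM in HFD. In the other direction was Tnni2, a troponin of fast fibres, at 2.62 to 15.6 and 16.2 to 26.2 CPM. Endothelial markers took 0.0018% to 0.00496% and 0.000656% to 0.00206%, with overlap, and 4 of 5 tested genes were lower (median -0.65). The part of these cells in the values of the respiratory genes was not tested.

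**Figure D1:**
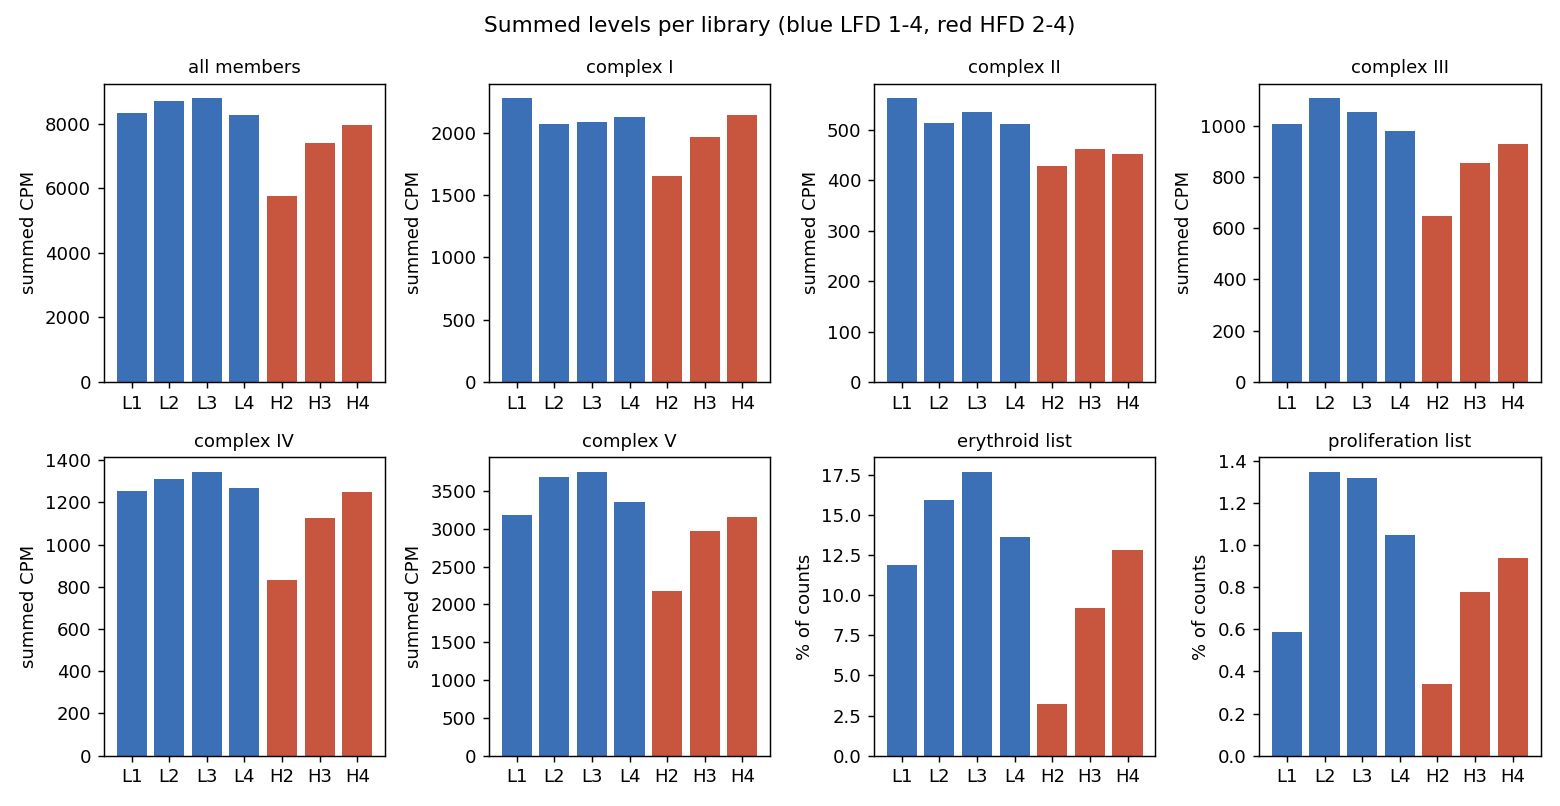
Bars give the summed CPM of all 81 genes and of each complex in each library (L, LFD 1 to 4, blue; H, HFD 2 to 4, red), and the last panels the percent of counts in the erythroid and proliferation lists. HFD 2 has the lowest bar in all 8 panels, and for the whole set the HFD bars reach 5771 to 7965 CPM against 8274 to 8811 CPM in LFD.

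**Figure D2:**
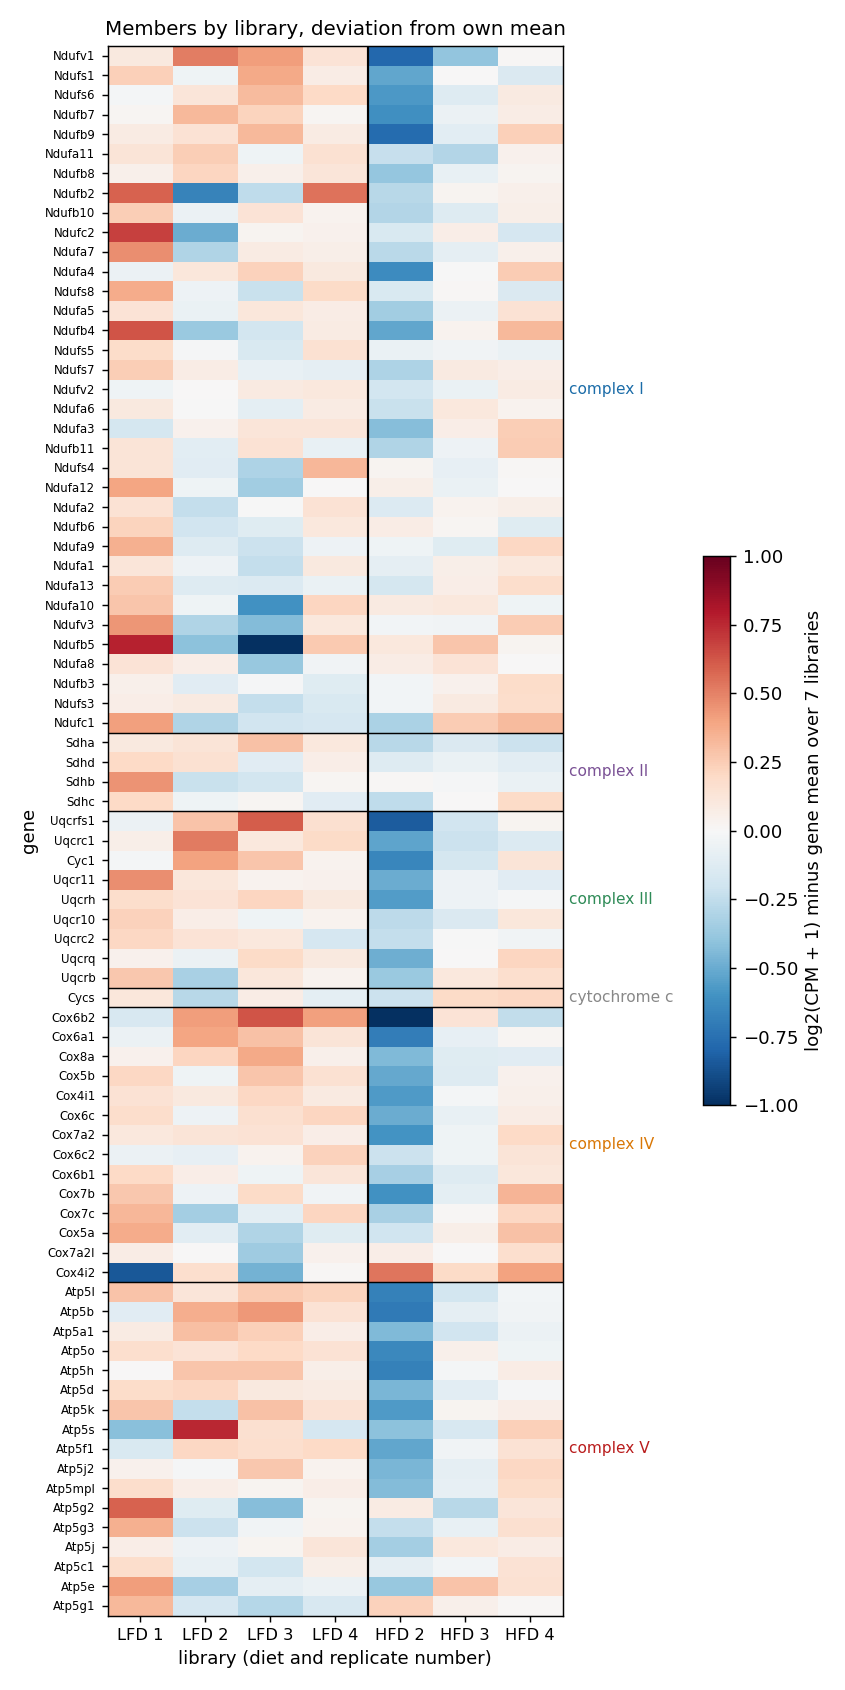
Each row is a gene (80 of the 81 are drawn) and each column a library; colour gives log2(CPM + 1) minus the gene's mean over the 7 libraries, red above and blue below, with the scale ending at 1 and -1. The HFD 2 column is blue in most rows (lowest library for 52 of the 81 genes), and within the complexes the rows are sorted by fitted fold change.

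Complex I, the largest of the complexes, showed the smallest median difference of the 5, and 26 of its 36 genes were lower in HFD (median -0.08). Summed levels were 2281, 2075, 2088 and 2128 CPM in LFD and 1654, 1968 and 2141 CPM in HFD, so the groups overlapped. Its 7 catalytic core genes, which bind FMN and the iron-sulphur clusters, summed to 574 to 622 CPM in LFD and 440 to 533 CPM in HFD without overlap. The 29 accessory genes summed to 1452 to 1687 and 1214 to 1608 CPM and overlapped. Of the core genes 6 of 7 were lower (median -0.09) and of the accessory genes 20 of 29 (median -0.04). The difference between core and accessory genes was not tested. The median of the complex was -0.01 without LFD 1, -0.03 without HFD 2 and -0.15 without HFD 4. In the same fits the median of all genes tested was 0.09, 0.00 and 0.04, against 0.02 with every library.

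Ndufv1 (ENSMUSG00000037916, chromosome 19, 4007384 to 4012806, mm10), which codes for the subunit that holds FMN and takes up electrons from NADH, had the smallest p of the 81. It was at 150, 200, 187 and 154 CPM in LFD and 80.5, 106 and 141 CPM in HFD. Every HFD library was below every LFD library, and HFD 4 was close to the lowest of them. The means were 173 ± 24.7 and 109 ± 30.2 CPM, a log2 fold change of -0.66 ± 0.24 (SE; unadjusted p = 0.0259, edgeR adjusted p = 0.588). Over the alternative settings it ran from -0.88 without HFD 4 to -0.29 with the erythroid covariate.

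The iron-sulphur subunit Ndufs1, of the same NADH-oxidising module, overlapped between diets. Ndufs1 was at 96.2, 79.1, 106 and 85.8 CPM in LFD and 56.5, 81.6 and 73.5 CPM in HFD (log2 fold change -0.38 ± 0.20, edgeR adjusted p = 0.693). Ndufv2, the iron-sulphur subunit that pairs with Ndufv1, was nearly level, at 83.5 to 92.7 CPM in LFD and 75.8 to 91.3 CPM in HFD (-0.09 ± 0.16). The accessory subunit Ndufs6 was at 43.2 to 54.7 and 29.1 to 46.7 CPM (-0.35 ± 0.22, edgeR adjusted p = 0.706).

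Levels per length were compared as RPKM (CPM per kilobase of annotated exon sequence). By RPKM the highest genes of complex I were Ndufb9 (mean 158 over all libraries) and Ndufa1 (147), both small accessory subunits. Ndufb9 measured 169 to 200 CPM in LFD and 92.8, 148 and 188 CPM in HFD, with HFD 2 far below the other 6 libraries (log2 fold change -0.32 ± 0.26, and 0.12 with the erythroid covariate). Ndufb2 had the lowest value of the set, 2.15 RPKM. That value may understate its level beside other genes, because the length counts every annotated exon, rare long transcripts included.

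The 3 genes of the set on the X chromosome were read separately because the groups differed in Xist. Ndufa1 was at 51.9 to 66.6 CPM in LFD and 57.5 to 65.9 CPM in HFD (log2 fold change 0.04 ± 0.17), and Ndufb11 at 67.6 to 80.2 and 58.9 to 86.7 CPM (-0.04 ± 0.19). Cox7b, of complex IV, was at 66.6 to 83.5 and 45.2 to 87.7 CPM (-0.17 ± 0.25). For all 3 the libraries of the diets overlapped.

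Complex II is the only complex with all its subunits encoded in the nucleus, and its 4 genes were all lower in HFD, with a median of -0.13 (-0.05 without LFD 1 and -0.20 with the erythroid covariate, the lowest of the 5 complexes there). The median of all genes tested was 0.09 without LFD 1 and 0.05 with the covariate. Summed levels were 564, 514, 535 and 513 CPM in LFD and 429, 463 and 453 CPM in HFD, without overlap. As a share of counts the groups overlapped, at 0.0472% to 0.0623% in LFD and 0.0438% to 0.0497% in HFD. The sum rested on Sdha (ENSMUSG00000021577, chromosome 13, 74322254 to 74350280), the flavoprotein that oxidises succinate. Sdha was at 278, 284, 318 and 279 CPM in LFD and 214, 235 and 223 CPM in HFD. Here the HFD libraries lay close together and all below LFD. The log2 fold change was -0.37 ± 0.18 (edgeR adjusted p = 0.685), and it stayed between -0.40 and -0.30 over 15 alternative settings, those without HFD 2 and with the erythroid covariate included. For its partner, the iron-sulphur subunit Sdhb, the values were 103, 64.3, 66.0 and 76.1 CPM in LFD and 75.6, 74.3 and 71.4 CPM in HFD (-0.07 ± 0.21), with LFD 1 above the rest. The membrane anchors Sdhc and Sdhd had log2 fold changes of -0.03 ± 0.19 and -0.18 ± 0.17. Sdhd, whose ETS match is printed above, had the highest RPKM of the complex (80.9).

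Complex III had the lowest median of the 5 complexes, -0.34, and all of its 9 genes were lower in HFD. Summed levels were 1006, 1109, 1054 and 980 CPM in LFD and 646, 853 and 929 CPM in HFD, without overlap. Without HFD 2 the median was -0.19, and with the erythroid covariate it was -0.07, above complex II at -0.20. Groups of Uqcr11, Uqcrc1 and Uqcrh did not overlap, and those of the other 6 did. Over the 81 genes, every HFD library was lower than every LFD library for 12 and higher for 1, where 3.47% and 8.4% of all genes tested showed this. The count of lower genes was 30 without HFD 4, where 8.26% of all genes showed it. That of higher genes was 2 without LFD 1 (15.3% of all genes) and 3 without HFD 2 (10.6%).

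Uqcrc1 (ENSMUSG00000025651, chromosome 9, 108936633 to 108949623), a core protein of the matrix side, had the second unadjusted p under 0.05. It was at 270, 372, 280 and 296 CPM in LFD and 180, 224 and 236 CPM in HFD. LFD 2 was the highest and HFD 2 the lowest. The log2 fold change was -0.51 ± 0.22 (unadjusted p = 0.0461, edgeR adjusted p = 0.656), and it ran from -0.59 without HFD 4 to -0.31 with the erythroid covariate. Its companion core protein Uqcrc2 was at 73.4 to 95.8 and 69.9 to 82.3 CPM (-0.17 ± 0.18). Uqcrfs1, the Rieske iron-sulphur protein, was at 82.4, 105, 131 and 96.3 CPM in LFD and 47.9, 75.2 and 87.5 CPM in HFD, and HFD 4 lay above LFD 1 (-0.56 ± 0.26, edgeR adjusted p = 0.683, and -0.10 with the erythroid covariate).

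Cyc1, the cytochrome c1 of the complex, was at 131, 175, 161 and 136 CPM in LFD and 83.9, 117 and 145 CPM in HFD (log2 fold change -0.39 ± 0.24, edgeR adjusted p = 0.704, and -0.01 with the erythroid covariate). The small subunits Uqcr11 and Uqcr10 had the highest RPKM of the complex, 110 and 112 over all libraries. Uqcr11 was at 96.0, 75.0, 71.1 and 71.3 CPM in LFD and 48.7, 66.8 and 63.9 CPM in HFD (-0.39 ± 0.20, edgeR adjusted p = 0.693). Uqcr10 was at 63.0 to 76.5 and 54.0 to 70.5 CPM (-0.17 ± 0.18).

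Cycs, the soluble carrier that receives electrons from complex III, was not lower in HFD. It was at 34.7, 26.2, 33.8 and 29.9 CPM in LFD and 27.5, 36.7 and 37.0 CPM in HFD, and the groups overlapped (log2 fold change 0.11 ± 0.21, edgeR adjusted p = 0.910). Its RPKM of 9.48 was low beside the median subunit of complex III, at 65.3 to 81.2 RPKM in LFD and 43.5 to 67.2 RPKM in HFD. The testis form Cyct had 0 counts in every library.

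Complex IV had 11 of 14 genes lower in HFD and a median of -0.22, which was -0.07 without HFD 2, -0.40 without HFD 4 and 0.03 with the erythroid covariate. Summed levels were 1255, 1309, 1346 and 1268 CPM in LFD and 834, 1126 and 1247 CPM in HFD. The HFD sums were all lower, but HFD 4 was close to LFD 1, and as a share of counts the groups overlapped. The abundant ubiquitous subunits made up the sum. Cox6a1, the most abundant gene of the set per length (420 RPKM over all libraries), was at 276, 379, 353 and 315 CPM in LFD and 178, 272 and 292 CPM in HFD (-0.42 ± 0.25, edgeR adjusted p = 0.697, and -0.04 with the erythroid covariate). Its groups overlapped, since HFD 4 lay above LFD 1. Cox8a, at 140, 158, 177 and 141 CPM in LFD and 100, 125 and 126 CPM in HFD, did not overlap (-0.40 ± 0.19, edgeR adjusted p = 0.685).

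Several subunits of complex IV come in paired isoforms, with a ubiquitous form beside a form restricted to a tissue or condition. The 5 genes left out for low counts were all of the restricted kind. The heart and muscle forms Cox6a2, Cox7a1 and Cox8b had at most 23, 38 and 26 counts in any library. Cox8c, known from testis, had at most 28, and Cox7b2 had 0 in every library, which allows at most 3 counts. Just inside the count rule was Cox6c2, with 7 to 16 counts. The annotation lists Cox6c2 as a processed pseudogene, a copy of Cox6c, so its counts may include reads of Cox6c. The ubiquitous forms Cox6a1, Cox7a2 and Cox8a were at 276 to 379, 96.9 to 102 and 140 to 177 CPM in LFD.

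For subunit 4 both forms were detected in every library. Cox4i1, the ubiquitous form, was at 217, 210, 227 and 209 CPM in LFD and 132, 194 and 204 CPM in HFD, without overlap (log2 fold change -0.29 ± 0.21, edgeR adjusted p = 0.735, and 0.00 with the erythroid covariate). Cox4i2, the form known to be induced by low oxygen, ran the other way. It was at 12.8, 26.9, 16.9 and 24.1 CPM in LFD and 35, 27.4 and 31.9 CPM in HFD, and was the 1 gene of the 81 with every HFD library above every LFD library. HFD 3 exceeded LFD 2 only slightly. The log2 fold change was 0.64 ± 0.30 (edgeR adjusted p = 0.683), between 0.42 and 0.81 over 15 alternative settings, none of which passed the test.

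Per 100 RPKM of Cox4i1, Cox4i2 stood at 11.6, 25.3, 14.6 and 22.7 in LFD and 52.2, 27.8 and 30.8 in HFD. The ratio was therefore highest in HFD 2, where Cox4i1 was lowest and Cox4i2 highest, and it did not overlap between the diets. Cox6b2, known as the testis form beside Cox6b1, had the largest fitted difference of the set in the other direction. It was at 12.2, 18.7, 21.7 and 18.6 CPM in LFD and 5.42, 15.2 and 11.4 CPM in HFD (-0.74 ± 0.40, edgeR adjusted p = 0.693), and HFD 3 lay above LFD 1. Its value ran from -1.08 without HFD 3 to -0.08 with the erythroid covariate. Per 100 RPKM of Cox6b1 it stood at 5.75 to 12 in LFD and 3.68 to 8.96 in HFD.

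The remaining isoforms and core genes of complex IV overlapped between the diets. Cox6b1 was at 115 to 136 CPM in LFD and 94.0 to 128 CPM in HFD (log2 fold change -0.20 ± 0.18), and Cox7a2 at 96.9 to 102 and 60.8 to 106 CPM (-0.22 ± 0.22). Cox5b was at 63.8 to 80.1 and 46.0 to 68.0 CPM (-0.34 ± 0.20), and Cox6c at 91.3 to 110 and 67.1 to 100 CPM (-0.27 ± 0.20). Cox5a, which lies in the matrix part, was at 14.9 to 24.3 and 16.1 to 23.0 CPM (0.09 ± 0.27). Cox7a2l, known for joining complexes III and IV into supercomplexes, was at 20.2 to 27.7 and 26.2 to 29.5 CPM (0.13 ± 0.21).

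**Figure D3:**
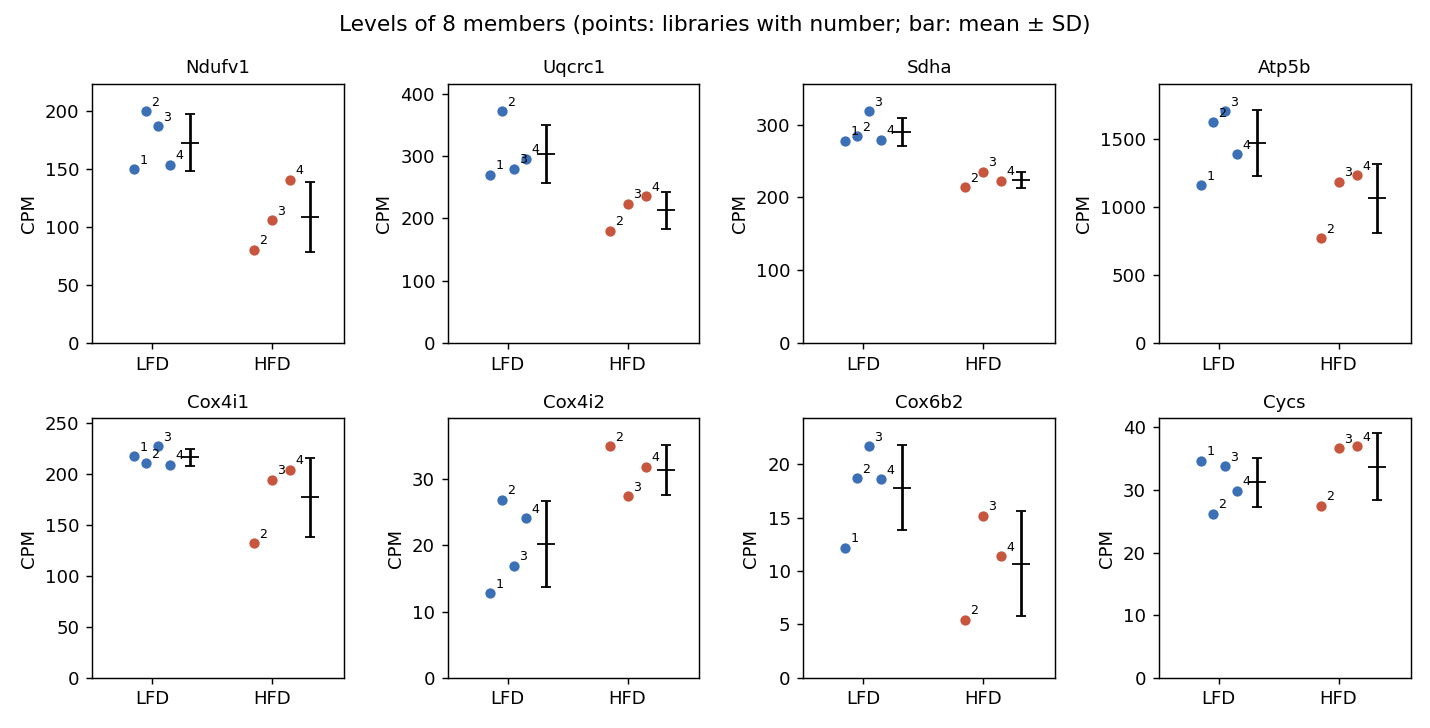
Points give the CPM of 8 genes in each library, numbered by replicate (blue LFD, red HFD), with the mean and SD beside them; the vertical axes start at 0. Ndufv1, Uqcrc1, Sdha and Cox4i1 have all HFD points below the LFD points, Cox4i2 has them above, and Atp5b, Cox6b2 and Cycs overlap.

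Complex V held the most abundant genes and 14 of its 17 were lower in HFD, with a median of -0.22. Summed levels were 3186, 3681, 3756 and 3355 CPM in LFD and 2181, 2964 and 3158 CPM in HFD. These sums did not overlap, but HFD 4 and LFD 1 were near each other. As a mean of log2(CPM + 1) over the genes, the diets overlapped, at 6.43 to 6.52 in LFD and 5.98 to 6.46 in HFD. The 5 genes of the catalytic F1 head supplied most of this sum, at 2239 to 2791 CPM in LFD and 1526 to 2210 CPM in HFD. The median of the complex was -0.10 without HFD 2, -0.37 without HFD 4 and 0.01 with the erythroid covariate.

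Atp5b, the catalytic beta subunit and the gene with the most counts of the set, was at 1164, 1627, 1706 and 1393 CPM in LFD and 773, 1188 and 1234 CPM in HFD. The groups overlapped, because LFD 1 lay below HFD 3 and HFD 4 (log2 fold change -0.47 ± 0.29, edgeR adjusted p = 0.704, and -0.07 with the erythroid covariate). Atp5a1, the alpha subunit that alternates with beta in the head, was at 672, 779, 748 and 662 CPM in LFD and 467, 556 and 607 CPM in HFD. It did not overlap (-0.40 ± 0.22, edgeR adjusted p = 0.693, and -0.20 with the erythroid covariate). By RPKM the beta subunit averaged 306 and the alpha subunit 205 over all libraries.

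The rotor and small parts of the head were not alike. Atp5d, the delta subunit, was at 150 to 164 CPM in LFD and 103, 132 and 141 CPM in HFD, without overlap (log2 fold change -0.32 ± 0.19, edgeR adjusted p = 0.694). Atp5c1, the gamma subunit that forms the central shaft, was at 131 to 168 and 140 to 165 CPM (0.01 ± 0.18). Atp5e, the epsilon subunit, was at 44.3 to 75.3 and 43.0 to 68.7 CPM (0.04 ± 0.25). No test was made of the difference between these subunits.

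The peripheral stalk holds the head still against the rotor, and its 4 genes had log2 fold changes from -0.34 (Atp5o) to -0.08 (Atp5j). Atp5o was at 98.7 to 103 CPM in LFD and 57.1, 92.8 and 87.1 CPM in HFD, without overlap (-0.34 ± 0.21, edgeR adjusted p = 0.703). Atp5j, with all 3 motifs in the window printed above, was at 132 to 149 and 108 to 147 CPM (-0.08 ± 0.19). Of its annotated exon bases 12.7% lie opposite exons of Gabpa, which was at 42.8 to 69.3 CPM in LFD and 34.4 to 53.4 CPM in HFD, and the library kit does not mark strand.

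The c-ring, the part that turns as protons pass, is made of 1 protein encoded by 3 genes that differ in their import sequence. Atp5g3 supplied 73.6% to 82.4% of their summed RPKM in every library. It was at 143, 96.1, 109 and 114 CPM in LFD and 94.4, 106 and 125 CPM in HFD (log2 fold change -0.09 ± 0.21). Atp5g1 was at 52.0, 36.6, 33.8 and 36.8 CPM in LFD and 48.6, 42.9 and 41.7 CPM in HFD (0.16 ± 0.21), and Atp5g2 at 6.35 to 13.8 and 7.15 to 9.70 CPM (-0.09 ± 0.38). The relative use of the 3 genes was 12.2 ± 0.905, 8.21 ± 1.46 and 79.6 ± 2.16 percent in LFD for Atp5g1, Atp5g2 and Atp5g3, and 14.3 ± 2.5, 8.19 ± 1.34 and 77.5 ± 3.48 percent in HFD. These shares overlapped between the diets for each gene.

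In the membrane part, Atp5l, the g subunit of the dimer contact, was at 22.6, 20, 22.1 and 21.6 CPM in LFD and 11.1, 16.0 and 18.0 CPM in HFD. Its LFD values were close together and all above HFD (log2 fold change -0.52 ± 0.25, edgeR adjusted p = 0.685). Beyond the symbol rule, Atpif1 codes for the inhibitor that stops the synthase from running backwards. Atpif1 was at 176, 268, 313 and 270 CPM in LFD and 55.0, 197 and 263 CPM in HFD, and like the erythroid share it was lowest in HFD 2 and highest in LFD 3, though the order of the other libraries differed (-0.58 ± 0.48, edgeR adjusted p = 0.760). With the erythroid covariate its log2 fold change was 0.35.

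**Figure D4:**
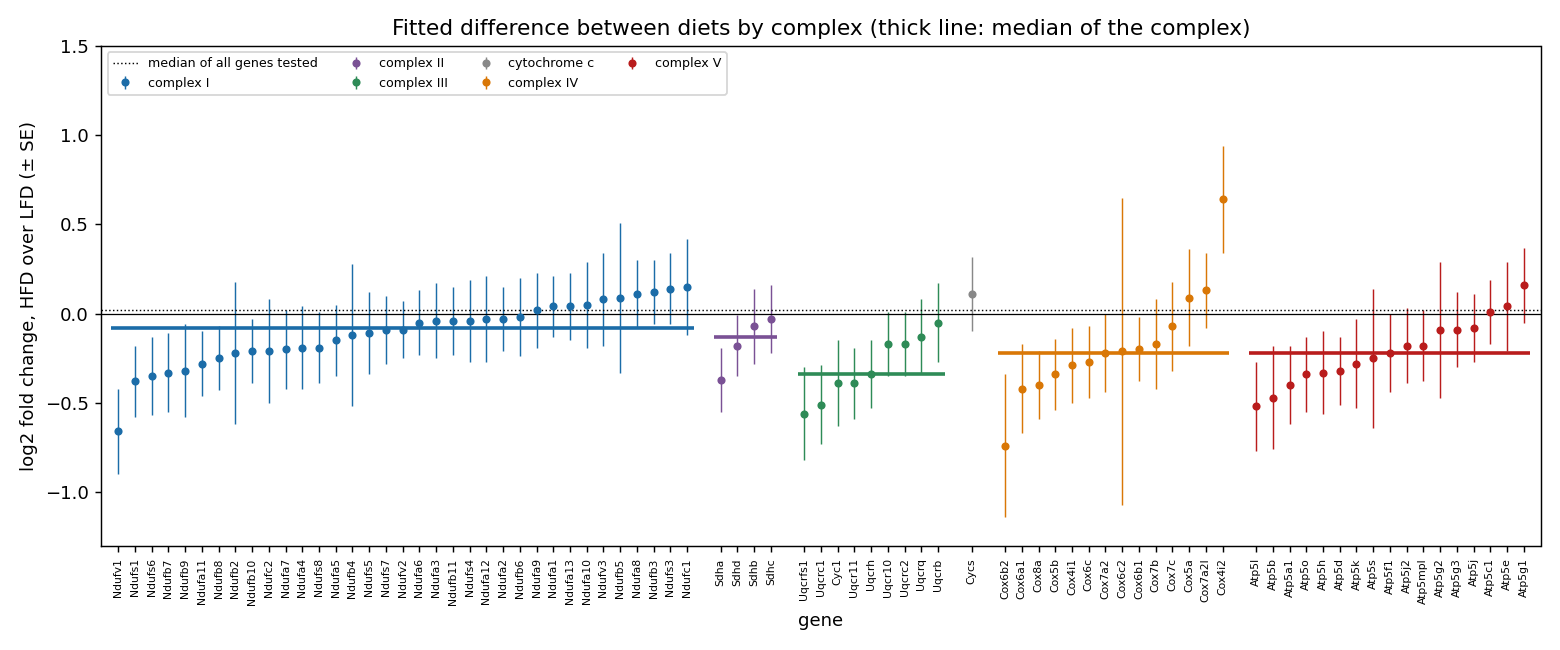
Points give the fitted log2 fold change (HFD over LFD) of 80 of the 81 genes with its SE, grouped by complex; thick lines are the medians of the whole complexes and the dotted line that of all genes tested (0.02). The medians are -0.08, -0.13, -0.34, -0.22 and -0.22 for complexes I to V.

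Within the set, the more abundant genes had the lower values in HFD. Of the 27 genes with the highest mean CPM (86.2 or more) 26 were lower (median -0.32). Of the 27 in the middle 21 were lower (median -0.13), and of the 27 lowest 17 (median -0.05). Across the 81 genes, Spearman's rho between mean CPM and log2 fold change was -0.48, with RPKM in place of CPM it was -0.37, and with exon length -0.05. The genes share libraries and scaling and are not independent, so these are descriptions. The genes also varied together: the median Pearson correlation of log2(CPM + 1) between pairs of genes over the 7 libraries was 0.45, and 77.0% of pairs were positive.

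**Figure D5:**
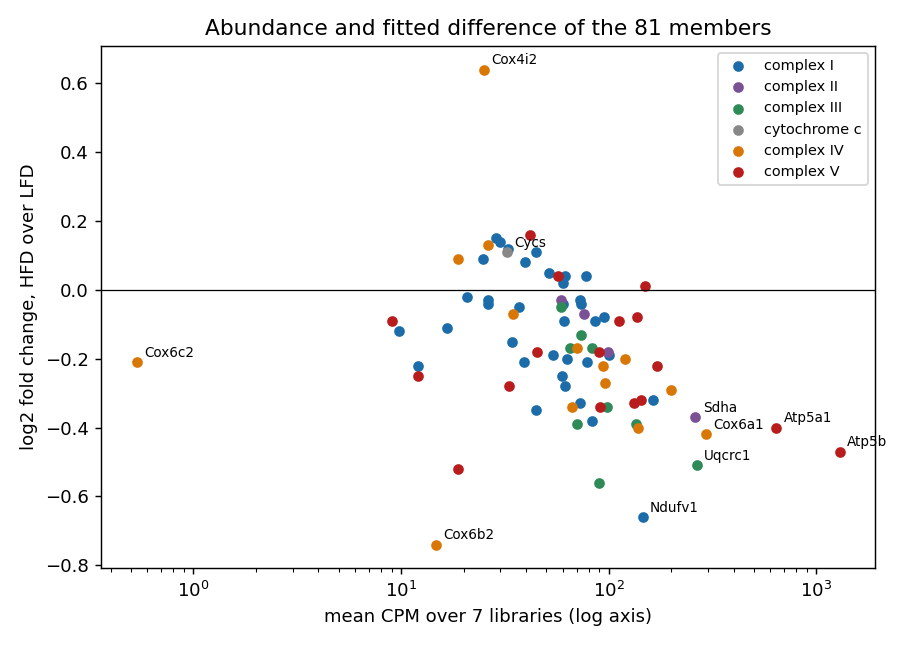
Each point is 1 of the 81 genes, with its mean CPM over the 7 libraries on a log axis and its fitted log2 fold change (HFD over LFD) on the vertical axis, coloured by complex. Genes to the right lie lower (Spearman's rho -0.48), with Atp5b at -0.47 and Atp5a1 at -0.40, and Cox4i2 stands alone at 0.64.

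Genes that build or feed the complexes were read from lists of the same pathway. The 46 assembly factors tested, which insert metals and join subunits, were divided, with 21 lower and 25 higher and a median of 0.03. The smallest unadjusted p values among them belonged to Cox15, a heme A synthase (38.2 to 55.5 CPM in LFD, 29.8 to 41.2 in HFD, log2 fold change -0.47 ± 0.21, edgeR adjusted p = 0.679), and Cox11, a copper chaperone (4.60 to 17.8 and 2.87 to 7.10 CPM, -1.13 ± 0.56, edgeR adjusted p = 0.685). Mitochondrial ribosomes make the subunits encoded in mitochondrial DNA. The 77 genes tested with symbols of mitochondrial ribosomal proteins (Mrpl or Mrps), a list taken by symbol alone, were also near balance. Of these, 42 were lower, with a median of -0.02. Mrps24 (22.3 to 29.4 and 16.9 to 21.8 CPM, -0.42 ± 0.22, edgeR adjusted p = 0.693) and Mrps36 (12.2 to 23.9 and 7.66 to 13.4 CPM, -0.64 ± 0.34, edgeR adjusted p = 0.693) had the smallest p. No gene of either list passed by edgeR or DESeq2, or had an unadjusted p under 0.05.

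The citric acid cycle supplies NADH to complex I and shares complex II. Its list here also held genes of pyruvate entry (Dlat, Pdha1, Pdhb, Pdhx and Pcx) and not the Sdh genes, which are in the set. Of the 18 genes of this list 16 were lower, with a median of -0.28. None passed by edgeR or DESeq2, and 2, Cs and Dlst, had an unadjusted p under 0.05. Citrate synthase, Cs, which makes the first step, was at 175, 218, 194 and 178 CPM in LFD and 117, 159 and 141 CPM in HFD, without overlap (log2 fold change -0.46 ± 0.20, edgeR adjusted p = 0.656). Dlst, a subunit of the 2-oxoglutarate dehydrogenase complex, was at 85.5, 146, 107 and 105 CPM in LFD and 64.6, 78.6 and 85.9 CPM in HFD, with HFD 4 just above LFD 1 (-0.54 ± 0.23, edgeR adjusted p = 0.656). A further list held 14 carriers, channels, organising proteins and partners of the complexes, with Ndufab1, Ndufa4l2, Higd1a and Higd2a among them. Of its genes 12 were lower (median -0.17), and 0 had an unadjusted p under 0.05. Of these, the voltage-dependent channel Vdac3 was at 97.2 to 142 and 74.2 to 103 CPM (-0.33 ± 0.21, edgeR adjusted p = 0.708), and Chchd10 at 19.4 to 52.9 and 11.4 to 38.8 CPM (-0.68 ± 0.47, edgeR adjusted p = 0.724).

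Among 16 regulators tested 12 were lower in HFD, with a median of -0.39. None passed by edgeR or DESeq2, and 2 had an unadjusted p under 0.05. Gabpb1, the activating subunit of GABP, was at 50.6, 70.5, 81.4 and 63.0 CPM in LFD and 24.6, 45.7 and 40.6 CPM in HFD. Its groups did not overlap (log2 fold change -0.84 ± 0.27, unadjusted p = 0.0147, edgeR adjusted p = 0.486). Tfb1m, which methylates mitochondrial ribosomal RNA, was at 6.91, 8.08, 8.96 and 6.72 CPM in LFD and 5.07, 3.24 and 2.58 CPM in HFD, again without overlap (-1.08 ± 0.44, unadjusted p = 0.0404, edgeR adjusted p = 0.637). By contrast, Gabpa had a log2 fold change of -0.11 ± 0.26 and Tfam, which packages mitochondrial DNA, 0.03 ± 0.30. Nrf1, whose motif is printed above, ranged from 58.9 to 179 CPM in LFD and from 36.7 to 107 CPM in HFD (-0.73 ± 0.47). The coactivator Ppargc1a was near the limit of detection, with 0 CPM in 3 libraries and at most 3.49 CPM.

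Outside the mitochondrion, 72 of 82 cytosolic ribosomal protein genes were lower in HFD, with the same median as the respiratory genes, -0.17. Reads cannot be assigned to strand with this kit, and 24 of the 81 respiratory genes share annotated exon bases with another gene, none of them more than 39.0% (Ndufb6 with Smim27). For Ndufa13 the shared part was 30.0% (Tssk6), with 100 counts of Tssk6 against 11584 of Ndufa13 over all libraries. Genes encoded in mitochondrial DNA are not analysed here.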

How the data were processed

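RNA of 7 libraries of sorted femur cells was used, 4 LFD and 3 HFD, grouped by the diet in their titles. The authors deposited raw counts per gene. Per the submitters' processing notes, reads were handled on the mm10 build with STAR 2.5.2b, cutadapt, bcl2fastq 2.20, DESeq2 1.26.0 and HTSeq 0.11.2, and the strand setting of the counting is not given in the sources used here. Libraries were made with the SMART-Seq v4 and Nextera XT kits, per the labels' protocols, which do not mark strand. Of 42687 identifiers 42250 matched a symbol, and the 437 others stayed in the totals. Every 2 libraries differed beyond sampling noise (chi-square divided by its degrees of freedom was 57.3 to 670.5), so each was kept as 1 sample.

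The diets were compared in edgeR 4.0.16 (R 4.3.3) by the robust quasi-likelihood test, with TMM scaling, filterByExpr by diet and no term but diet. P-values were adjusted by Benjamini-Hochberg over the 14304 genes tested, with a threshold of 0.05. The common biological coefficient of variation was 0.628. The procedure was tested on simulated data. Fold changes are log2 of HFD over LFD with the SE from the F statistic. Lengths for RPKM were the union of exons of GENCODE M21. Depth was similar across libraries, and all but 1 of the 81 genes had at least 10 counts in each. Promoter windows came from RefSeq (GRCm38.p6).

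The 81 genes, the gene lists and the tests were chosen with earlier results of these data known. Named genes were, per complex, the 3 with the smallest p and the 2 with the highest RPKM, isoforms, X-linked genes, core subunits, and 2 genes with the smallest p of each pathway list. Genes outside this rule (such as Ndufv2, Sdhc, Uqcrc2, Uqcrh, Atp5c1, Atp5e, Atp5o, Atp5j, Cox5b, Cox6c, Cox6c2, Ndufb2, Gabpa, Tfam, Nrf1, Ppargc1a, Myf5, Myod1, Tnni2 and Adipoq) were named after their values were seen, to complete a functional unit or a list. Of the set, 1 gene is not reported by name here. Alternatives were RLE and upper-quartile scaling, 2 other filters, DESeq2 1.42.0, limma-voom (limma 3.58.1) with quality weights, each library left out, a replicate block and the log2 of the erythroid share as a covariate.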

Additional observations from a re-analysis of the deposited data

Results flagged for a closer look

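In the 4 LFD libraries, the highest or lowest value of a gene was set against the other 3. Of 32 named genes of the set, 3 had a library that stood apart, where chance alone gives about 1 in 20. Sdha was at 318 CPM in LFD 3, against 278 to 284 CPM in the others. Uqcr11 was at 96.0 CPM in LFD 1, against 71.1 to 75.0 CPM. Atp5g1 was at 52.0 CPM in LFD 1, against 33.8 to 36.8 CPM.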

How the results depend on the processing

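No named gene of the set passed under any of the 15 alternatives. Over all genes, 5 passed; the count was 1 to 6 when a library was left out, 8 with no filter, 1 with the erythroid covariate, 291 by DESeq2 and 28 by limma-voom. Of the 81 genes, 2 had an unadjusted p under 0.05, where 7.53% of all genes did. The count was 0 to 3 when a library was left out, where 4.19% to 14.3% of all genes were under that p. It was 1 with no filter (7.4% of all genes), 0 with the erythroid covariate (3.71%), 9 by DESeq2 (11.3%) and 6 by limma-voom (16.8%). Genes of the 81 that were lower in HFD numbered 64, with 50 to 72 when a library was left out and 42 with the erythroid covariate. Of all genes 48.5% were lower, with 44.8% to 50.1% when a library was left out and 45.5% with the covariate. The covariate gave a median of 0.00 over the set, 0.02 for complex I, -0.20 for complex II, -0.07 for complex III, 0.03 for complex IV and 0.01 for complex V. When a library was left out, the medians lay between -0.28 and -0.07 (set), -0.44 and -0.19 (complex III), -0.40 and -0.07 (complex IV) and -0.37 and -0.10 (complex V). The median of all genes tested was 0.05 with the covariate and 0.00 to 0.09 when a library was left out. Genes without overlap between diets numbered 12 to 30 (HFD lower) and 1 to 3 (HFD higher) when a library was left out. Over all genes these shares were 4.76% to 12.1% and 10.3% to 15.3%. Without LFD 1 the lower genes numbered 18, where 12.1% of all genes showed it. Same-numbered libraries did not deviate together (r from -0.17 to 0.07), so numbers were not taken as pairs. With the replicate block 0 genes passed, 0 of the 81 had an unadjusted p under 0.05 (9.33% of all genes did) and 51 were lower (42.5% of all genes were). Signs were followed gene by gene for the named genes only, and the counts of lower genes above show that others turned too. Among the named genes, the block turned the sign of Atp5g2 (0.17), Atp5g3 (0.02) and Sdhb (0.11). With the covariate the sign turned for Atp5g1 (-0.03), Atp5g3 (0.01), Atpif1 (0.35), Chchd10 (0.17), Cox7a2 (0.11), Cox7b (0.18), Ndufb11 (0.18) and Ndufb9 (0.12), and by limma-voom Ndufb11 was at 0.00. Leaving out a library turned the sign of 7 of the named genes. Their ranges were -0.23 to 0.17 for Atp5g2, -0.20 to 0.03 for Atp5g3, -0.05 to 0.25 for Cox5a and -0.43 to 0.03 for Cox7b. For Ndufa1 the range was -0.03 to 0.09, for Ndufb11 -0.19 to 0.08 and for Sdhb -0.15 to 0.11. None of these was called, and beyond fewer samples the cause was not tested. Precision was set by the spread between libraries, with a median SE of 0.21 over the 81 genes.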
